A study of Homo sapiens with 6 samples.

Results

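The genes described here were 9 members of the DOCK and ELMO families, namely DOCK1, DOCK4, DOCK5, DOCK6, DOCK8, DOCK9, DOCK10, ELMO2 and ELMO3, out of 58735 genes in the deposited table. They were taken by their gene symbols, each of which matched 1 gene, and they were chosen by family with the counts and FPKM of both groups already known, so that their differences are a description. RNA was sequenced from AsPC-1 cells, an established cell line from a human pancreatic cancer, in 6 libraries. The Vector group (n = 3, labelled NC and genotype WT) had received an empty lentivirus, and the OE-MMP28 group (n = 3) had received a lentivirus for overexpression of MMP28, which encodes a secreted matrix metalloproteinase. Per the study's methods, the MMP28 vector also carried GFP and a puromycin resistance marker, and infected cells were selected with puromycin. The promoter driving MMP28 was not given in the sources used here, and neither was it given whether the 3 samples of a group came from separate infections or cultures, so the p-values measure only the spread between these samples.

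DOCK proteins are guanine nucleotide exchange factors: they load Rac or Cdc42, small GTPases that direct actin assembly, with GTP through a domain called DHR-2. The DOCK-A subfamily (DOCK1, DOCK2, DOCK5) and the DOCK-B subfamily (DOCK3, DOCK4) act on Rac together with an ELMO scaffold protein, whereas DOCK-C proteins such as DOCK6 and DOCK8 act on Rac or Cdc42 and DOCK-D proteins (DOCK9, DOCK10, DOCK11) act on Cdc42. In adherent cells, DOCK1 and ELMO are recruited through the adaptors CRK and BCAR1 to integrin adhesions and to receptors for dying cells, and they drive cell spreading, migration and engulfment.

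Total counts per library ranged from 13633249 to 16691458, and mitochondrial genes took between 8.80% and 14.8% of them. MMP28 itself was measured at 5.17, 9.11 and 8.43 FPKM (fragments per kilobase, corrected for gene length and library size) in Vector replicates 1, 2 and 3, and at 13.1, 13.9 and 15.1 FPKM in the OE-MMP28 libraries. It was higher in all 3 OE-MMP28 libraries than in any Vector library, with a log2 fold change of 0.90 (SE 0.19, edgeR's adjusted p = 0.00226), and an exact permutation test on the FPKM values (two-sided) gave p = 0.1, the smallest that 3 against 3 allows. Of 6 epithelial markers, KRT8, KRT18, KRT19 and EPCAM had at least 10398 counts in every library, CDH1 had 1136 to 2079 and KRT7 had 36 to 153. KRT19 was higher in OE-MMP28 cells (log2 fold change 0.71, edgeR's adjusted p = 0.00175), CDH1 was lower (-0.59, edgeR's adjusted p = 0.0113), and the other 4 did not pass the test. Among 10 haematopoietic and macrophage markers, PTPRC and SPI1 had at most 1 count, MS4A1 and CD3E had 0, and 2 passed the filter on low counts (CD14 and LYZ). The summed level of these 10 markers ran from 164 to 186 FPKM in the Vector libraries and from 106 to 146 FPKM in the OE-MMP28 libraries, nearly all of it from LYZ, which secretory epithelia also express. LYZ was lower in OE-MMP28 cells (log2 fold change -0.45, edgeR's adjusted p = 0.0376), and CD14 did not pass the test (edgeR's adjusted p = 0.243).

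In OE-MMP28 cells, DOCK4 was 10.3-fold higher than in Vector cells, while DOCK1, DOCK6 and ELMO2 were 1.48-fold, 1.79-fold and 1.61-fold lower. DOCK5, DOCK9, DOCK10 and ELMO3 did not pass the test, and DOCK8 had a count of 0 in all 6 libraries. In bulk RNA, fewer cells that express a gene and less RNA per cell cannot be told apart. Of the 9 members, 8 passed the filter on low counts, and among these 1 was higher and 3 were lower at an adjusted p under 0.05 by edgeR's quasi-likelihood test, where 11.7% of the 15319 genes tested were higher and 11.6% were lower. Vector and OE-MMP28 libraries had separate FPKM ranges for 5 of the 8, beside 38.1% of all genes tested. The median log2 fold change of the 8 genes was -0.43, beside 0.014 over all genes tested.

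**Figure D1:**
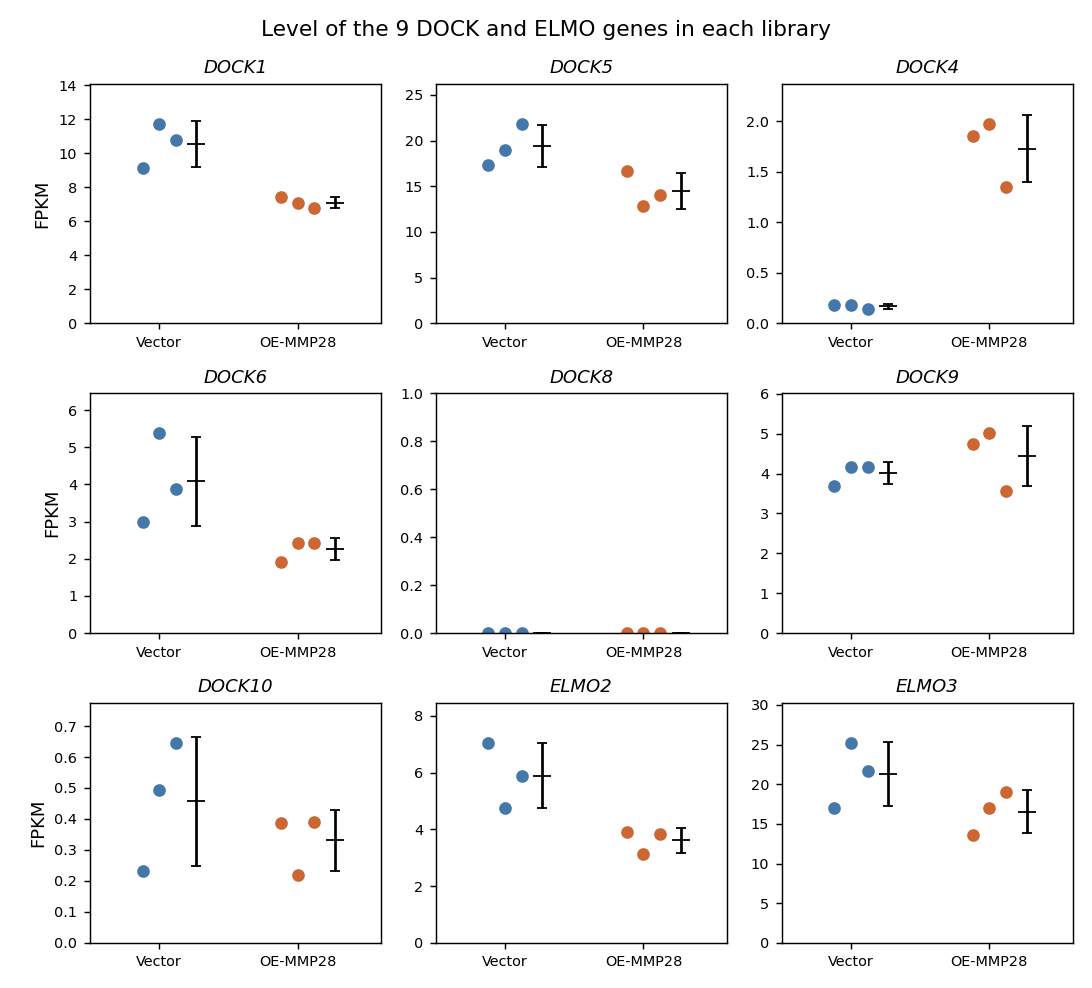
Level of each of the 9 genes in FPKM (vertical axis, from 0) in the 3 Vector and the 3 OE-MMP28 libraries. Points are libraries in replicate order, the horizontal mark is the mean and the bar is 1 SD; DOCK4 is near 0 in every Vector library and between 1.35 and 1.97 FPKM in the OE-MMP28 libraries, and DOCK8 is at 0 throughout.

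The DOCK4 promoter is shown with those of DOCK1 and ELMO2 because these genes differed in opposite directions between the groups. Each sequence runs 5′ to 3′ from 250 bases before to 50 bases after the RefSeq transcription start on GRCh38.p14, at chr7:112206350-112206649 on the minus strand for DOCK4, chr10:126905178-126905477 on the plus strand for DOCK1 and chr20:46406566-46406865 on the minus strand for ELMO2. The DOCK4 and DOCK1 windows cover the 5′ end of the gene as GENCODE places it, whereas the ELMO2 window lies inside the GENCODE gene, downstream of its 5′ end. Capitals mark matches, on either strand, to 8 short motifs. These were TGANTCA, with any base at N and so looser than the AP-1 consensus, which has C or G there, and CCGGAAG, bound by ETS factors. Also used were GGAATG, bound by TEAD factors, and the cyclic AMP response element TGACGTCA. The others were the promoter elements known as the TATA box, spelled TATAAA, the CCAAT box, spelled as its name, the GC box, spelled GGGCGG, and the E-box, spelled CACGTG.
DOCK4: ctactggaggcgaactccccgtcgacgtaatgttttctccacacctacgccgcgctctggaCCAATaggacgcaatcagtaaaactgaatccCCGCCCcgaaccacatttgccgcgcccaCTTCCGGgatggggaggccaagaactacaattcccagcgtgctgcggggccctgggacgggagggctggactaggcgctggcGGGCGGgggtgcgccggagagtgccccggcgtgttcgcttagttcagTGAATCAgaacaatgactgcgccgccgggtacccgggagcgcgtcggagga
DOCK1: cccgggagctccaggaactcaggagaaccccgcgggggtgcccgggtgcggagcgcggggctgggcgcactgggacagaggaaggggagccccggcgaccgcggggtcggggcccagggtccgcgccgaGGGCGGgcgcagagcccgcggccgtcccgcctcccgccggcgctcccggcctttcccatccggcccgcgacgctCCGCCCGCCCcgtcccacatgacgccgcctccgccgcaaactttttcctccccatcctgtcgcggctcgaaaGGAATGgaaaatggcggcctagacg
ELMO2: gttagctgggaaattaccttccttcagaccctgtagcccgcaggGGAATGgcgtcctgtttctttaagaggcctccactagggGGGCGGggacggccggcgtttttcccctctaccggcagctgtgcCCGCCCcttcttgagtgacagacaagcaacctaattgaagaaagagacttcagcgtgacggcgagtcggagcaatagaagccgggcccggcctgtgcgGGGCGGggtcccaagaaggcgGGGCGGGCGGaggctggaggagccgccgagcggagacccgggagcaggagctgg

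The DOCK4 window held 5 matches that did not overlap: a CCAAT box, 2 GC boxes, an ETS motif and a match to the AP-1 letters that spans the start site. That last match reads TGAATCA, with A where the AP-1 consensus has C or G, and binding was not tested. The neighbouring gene ZNF277 begins 0.177 kb beyond the DOCK4 start in GENCODE, inside this window, so the window does not belong to DOCK4 alone. The DOCK1 window held 3 GC boxes, of which 2 overlap, and a TEAD motif, and the ELMO2 window held 5 GC boxes, of which 2 overlap, and a TEAD motif. The RefSeq table held 18 windows of 11 DOCK and ELMO genes, 7 of the 9 members among them (not DOCK5 or DOCK6). The AP-1 and ETS letters were each found in 1 of the 18, that of DOCK4, and in 7.71% and 10.3% of all 35116 promoters. GC boxes were found in 45.0% of all promoters, CCAAT boxes in 34.6% and TEAD motifs in 14.03%. The other motifs were in none of these 3 windows, and in 11.5% (TATA box), 1.85% (cyclic AMP response element) and 7.26% (E-box) of all promoters. The DOCK4 window held 31 CpG dinucleotides at 64.0% GC, that of DOCK1 held 42 at 75.7% and that of ELMO2 held 23 at 64.3%, beside medians of 14 and 58.7% over all promoters.

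DOCK4 (ENSG00000128512, chromosome 7, 111726110 to 112206411, minus strand) encodes a Rac exchange factor of the DOCK-B subfamily that has also been linked to the GTPase Rap1. Its level was 0.182, 0.180 and 0.142 FPKM in Vector replicates 1, 2 and 3, from 32, 28 and 24 counts, and 1.85, 1.97 and 1.35 FPKM in OE-MMP28 replicates 1, 2 and 3, from 336, 360 and 261 counts. The lowest OE-MMP28 library was thus far above the highest Vector library. The mean of the Vector group was 0.168 ± 0.0228 FPKM and that of the OE-MMP28 group 1.72 ± 0.331 FPKM (SD, n = 3 each), for which edgeR gave a log2 fold change of 3.36 (SE 0.24, 95% confidence interval 2.87 to 3.86, adjusted p = 9.52e-09). Of all genes tested, 20 had a larger rise. The call held under all 18 alternative settings, in which the log2 fold change ran from 1.21, on the log2(FPKM + 1) scale that understates changes of low genes, to 3.61.

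On either side of DOCK4, the nearest gene tested with a mean level of 1 FPKM or more did not pass the test. ZNF277, which begins 0.177 kb beyond the DOCK4 start, had a log2 fold change of -0.24 (SE 0.17, edgeR's adjusted p = 0.331). IMMP2L, which encodes a mitochondrial inner membrane peptidase subunit and lies 164 kb to the other side, had a log2 fold change of 0.16 (SE 0.20, edgeR's adjusted p = 0.605). The 30 other genes tested within 5 Mb on either side of DOCK4 had a median log2 fold change of -0.25, with 4 higher and 7 lower.

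DOCK3, the other DOCK-B gene, was at 0.298 ± 0.102 FPKM (SD, n = 3) in Vector and 0.294 ± 0.0378 FPKM (SD, n = 3) in OE-MMP28 cells, from 25 to 50 counts. Its log2 fold change was -0.0085 (SE 0.33, 95% confidence interval -0.69 to 0.67, edgeR's adjusted p = 0.9897). In Vector cells DOCK3 was the higher of this pair per length, but in replicate 1 they were nearly equal (0.187 and 0.182 FPKM, from 25 and 32 counts). In every OE-MMP28 library DOCK4 was the higher. The summed DOCK-B level went from 0.466 ± 0.0857 to 2.02 ± 0.299 FPKM (SD, n = 3 each) through DOCK4.

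The DOCK-A genes made up most of the DOCK message in these cells. DOCK1 (ENSG00000150760, chromosome 10, 126905409 to 127452517, plus strand), the founding member of the family and the usual partner of ELMO at adhesions, was at 9.10, 11.7 and 10.8 FPKM in the Vector libraries and at 7.42, 7.09 and 6.77 FPKM in the OE-MMP28 libraries, in replicate order. All 3 OE-MMP28 libraries lay below all 3 Vector libraries, from 915 to 1295 counts each. The log2 fold change was -0.56 (SE 0.15, 95% confidence interval -0.88 to -0.24, edgeR's adjusted p = 0.0112). The adjusted p was 0.0570 without Vector replicate 3, 0.0570 without OE-MMP28 replicate 2 and 0.0745 in limma without a filter on low values.

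DOCK5 (ENSG00000147459, chromosome 8, 25184723 to 25418082, plus strand), a close relative of DOCK1 that also acts on Rac, was at 17.4, 19.0 and 21.9 FPKM in the Vector libraries and at 16.7, 12.8 and 14.1 FPKM in the OE-MMP28 libraries. The groups did not overlap, but the highest OE-MMP28 library and the lowest Vector library were close to each other. DOCK5 did not pass the test, with a log2 fold change of -0.41 (SE 0.15, 95% confidence interval -0.72 to -0.096, edgeR's adjusted p = 0.0541). It passed in 7 of the 18 alternative settings, among them those without Vector replicate 1 (adjusted p = 0.0347) and without OE-MMP28 replicate 1 (adjusted p = 0.0264). DOCK2, the DOCK-A gene of blood cells, had at most 2 counts in any library.

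The level of DOCK5 was above that of DOCK1 per length in all 6 libraries. The ratio of DOCK1 to DOCK5 was 0.545 ± 0.0652 (SD, n = 3) in Vector and 0.493 ± 0.0552 (SD, n = 3) in OE-MMP28 cells, with overlapping ranges. The summed DOCK-A level was 30.0 ± 3.16 FPKM (SD, n = 3) in Vector and 21.6 ± 2.21 FPKM (SD, n = 3) in OE-MMP28 cells, and these ranges did not overlap.

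DOCK1 and DOCK5 lie in stretches of the genome whose genes were mostly lower in OE-MMP28 cells, and their differences were about the size of the local median. Of the 35 other genes tested within 5 Mb of DOCK1, 31 had a log2 fold change below 0, 14 were lower and 0 were higher at an adjusted p under 0.05 (edgeR), and the median was -0.59. Around DOCK5, 58 of 69 genes were below 0, 23 were lower and 4 were higher, with a median of -0.35. When the local median was taken out in the fit, the log2 fold change of DOCK1 was 0.025 (SE 0.15, edgeR's adjusted p = 0.935) and that of DOCK5 was -0.059 (SE 0.15, edgeR's adjusted p = 0.838). Whether DNA copy number differed between the groups was not tested.

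**Figure D2:**
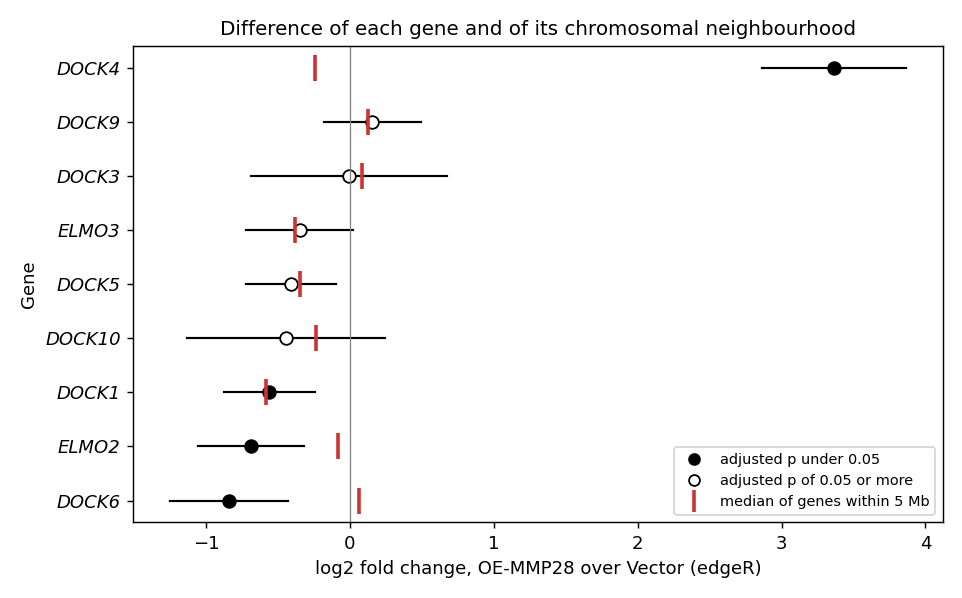
Log2 fold change of OE-MMP28 over Vector (horizontal axis, edgeR) for the 9 DOCK and ELMO genes shown that passed the filter (DOCK3 and 8 members), with 95% confidence intervals; filled points have an adjusted p under 0.05, and red bars give the median of the other genes within 5 Mb. The red bar lies on or near the point for DOCK1, DOCK5 and ELMO3 and away from it for DOCK4, DOCK6 and ELMO2.

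Of the DOCK-C members, DOCK6 was detected, and it was lower in OE-MMP28 cells. DOCK6 (ENSG00000130158, chromosome 19, 11199295 to 11262481, minus strand), an exchange factor for Rac and Cdc42 that is mutated in Adams-Oliver syndrome, was at 2.99, 5.37 and 3.87 FPKM in the Vector libraries and at 1.91, 2.43 and 2.42 FPKM in the OE-MMP28 libraries. The groups did not overlap, although the Vector libraries were spread widely, with replicate 2 the highest. The log2 fold change was -0.84 (SE 0.20, 95% confidence interval -1.25 to -0.43, edgeR's adjusted p = 0.00419). In limma on FPKM the adjusted p was 0.0610 and 0.0560 with pseudocounts of 1 and 0.1, and 0.166 without a filter on low values.

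The neighbourhood of DOCK6 was centred near 0: the median log2 fold change of the 194 other genes tested within 5 Mb was 0.066, and with the local median taken out that of DOCK6 was -0.91 (SE 0.20, edgeR's adjusted p = 0.00363). Its nearest expressed neighbours differed from each other. KANK2, less than 2 kb away, had a log2 fold change of 0.0045 (edgeR's adjusted p = 0.988), and RAB3D, 59.6 kb away on the other side, had -1.45 (edgeR's adjusted p = 0.000294).

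DOCK8 (ENSG00000107099, chromosome 9, 214854 to 465259, plus strand), a Cdc42 exchange factor of immune cells whose loss causes a combined immunodeficiency, had no count in any library. A count of 0 allows a level of up to 0.0130 to 0.0160 FPKM, depending on the library, which covers counting error only. The genes on either side were detected: CBWD1, which ends 35.7 kb before DOCK8, had between 101 and 356 counts, and KANK1, which begins 5.03 kb after it, had between 59 and 94. Of the 27 other protein-coding genes within 5 Mb of DOCK8, 17 had at least 10 counts in some library and 6 had 0 in all. Among those at 0 were C9orf66, which overlaps the start of DOCK8, and DMRT1, DMRT3 and DMRT2, which lie beyond KANK1.

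The DOCK-D genes did not pass the test. DOCK9 (ENSG00000088387, chromosome 13, 98793429 to 99086625, minus strand), also called zizimin1 and specific for Cdc42, was at 3.70, 4.17 and 4.16 FPKM in the Vector libraries and at 4.73, 5.01 and 3.57 FPKM in the OE-MMP28 libraries. OE-MMP28 replicate 3 was the lowest of the 6 and the other OE-MMP28 libraries were the highest, so the groups overlapped. The log2 fold change was 0.16 (SE 0.16, 95% confidence interval -0.18 to 0.49, edgeR's adjusted p = 0.524). Its neighbour SLC15A1, a peptide transporter that ends 40.8 kb before it, was higher in OE-MMP28 cells (log2 fold change 0.84, SE 0.15, edgeR's adjusted p = 0.000461).

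DOCK10 (ENSG00000135905, chromosome 2, 224765090 to 225042445, minus strand), or zizimin3, was at 0.232, 0.493 and 0.644 FPKM in the Vector libraries and at 0.387, 0.218 and 0.390 FPKM in the OE-MMP28 libraries, from 39 to 107 counts. The Vector libraries alone spanned nearly the whole range. The log2 fold change was -0.45 with a wide interval (SE 0.33, 95% confidence interval -1.13 to 0.24, edgeR's adjusted p = 0.354). It was -0.77 without Vector replicate 1, the lowest of its group (adjusted p = 0.0519), -0.11 without Vector replicate 3, the highest (adjusted p = 0.886), and -0.23 without OE-MMP28 replicate 2 (adjusted p = 0.725). DOCK11, the remaining DOCK-D gene, had at most 5 counts, and the summed DOCK-D level was 4.50 ± 0.459 FPKM (SD, n = 3) in Vector and 4.79 ± 0.713 FPKM (SD, n = 3) in OE-MMP28 cells, with overlap.

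Of the ELMO scaffolds, ELMO2 was lower in OE-MMP28 cells. ELMO2 (ENSG00000062598, chromosome 20, 46366049 to 46432985, minus strand) was at 7.04, 4.75 and 5.87 FPKM in the Vector libraries and at 3.92, 3.12 and 3.84 FPKM in the OE-MMP28 libraries. The groups did not overlap, and Vector replicate 2 was the nearest to the OE-MMP28 libraries. The log2 fold change was -0.69 (SE 0.18, 95% confidence interval -1.06 to -0.32, edgeR's adjusted p = 0.00777). The adjusted p was 0.0664 without OE-MMP28 replicate 2 and 0.122 in limma without a filter on low values. The 85 other genes tested within 5 Mb had a median log2 fold change of -0.084, and with the local median taken out that of ELMO2 was -0.61 (SE 0.18, edgeR's adjusted p = 0.0241).

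ELMO3 (ENSG00000102890, chromosome 16, 67199111 to 67204029, plus strand), an ELMO gene of epithelial tissues, was at 17.0, 25.2 and 21.6 FPKM in the Vector libraries and at 13.6, 17.0 and 19.0 FPKM in the OE-MMP28 libraries. The ranges overlapped, and ELMO3 did not pass the test (log2 fold change -0.35, SE 0.18, 95% confidence interval -0.72 to 0.022, edgeR's adjusted p = 0.166). Around it, 87 of 111 genes had a log2 fold change below 0, with a median of -0.38, and with that median taken out ELMO3 was at 0.033 (SE 0.18, edgeR's adjusted p = 0.930). ELMO1, the ELMO gene of blood cells, had at most 5 counts. The ratio of ELMO3 to ELMO2 was 3.80 ± 1.44 (SD, n = 3) in Vector and 4.62 ± 1.03 (SD, n = 3) in OE-MMP28 cells, with overlapping ranges.

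By level per length, the order in Vector cells was ELMO3, DOCK5, DOCK1, ELMO2, DOCK6, DOCK9, DOCK10, DOCK3 and DOCK4, followed by DOCK11, ELMO1, DOCK2 and DOCK8 near or at 0. ELMO3 and DOCK5 overlapped in range, as did ELMO2 and DOCK6, DOCK6 and DOCK9, and DOCK10 and DOCK3, whereas the other neighbours from DOCK5 down to DOCK4 did not. In OE-MMP28 cells DOCK4 stood 7 instead of 9 in this order, between DOCK6, whose range it overlapped, and DOCK10, whose range it did not. DOCK9 moved ahead of ELMO2 and DOCK6, with a range that overlapped that of ELMO2.

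**Figure D3:**
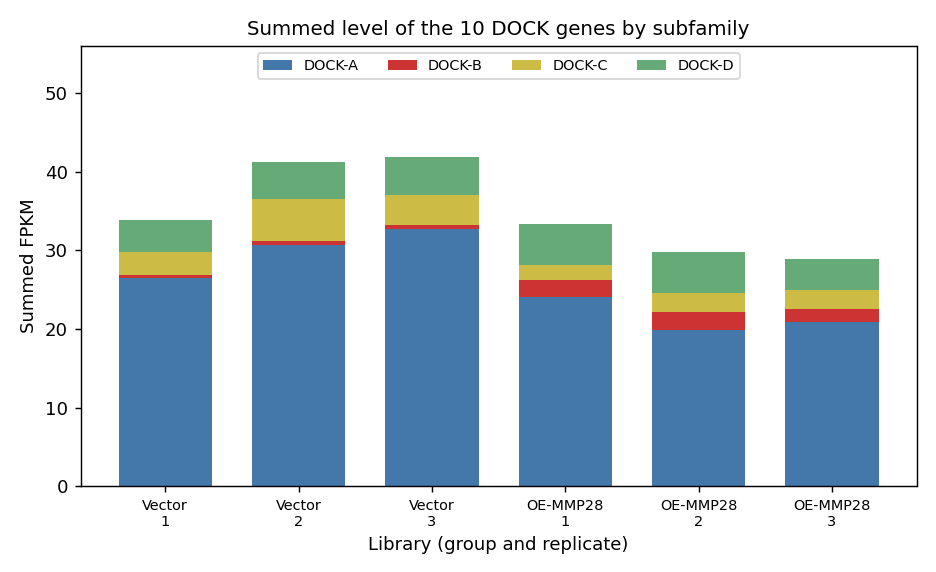
Summed FPKM of 10 DOCK genes in each library, stacked by subfamily (DOCK-A, DOCK-B, DOCK-C as DOCK6 and DOCK8, DOCK-D); the vertical axis starts at 0. The red DOCK-B layer is about 1% of the bar in the Vector libraries and between 5.79% and 7.46% in the OE-MMP28 libraries.

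The 10 DOCK genes described here together were at 39.0 ± 4.50 FPKM (SD, n = 3) in Vector and 30.7 ± 2.32 FPKM (SD, n = 3) in OE-MMP28 cells. DOCK-A genes held 76.9% ± 2.13 of that sum in Vector and 70.4% ± 3.19 in OE-MMP28 cells, and DOCK6 with DOCK8 held 10.4% ± 2.31 and 7.42% ± 1.47 (SD, n = 3 each). The DOCK-D share was 11.6% ± 0.223 and 15.6% ± 1.97, and the DOCK-B share was 1.19% ± 0.0887 and 6.57% ± 0.840 (SD, n = 3 each). DOCK4 alone went from 0.438% ± 0.1002 to 5.61% ± 0.977 of the DOCK sum (SD, n = 3 each). The summed ELMO level was 27.2 ± 2.93 FPKM (SD, n = 3) in Vector and 20.2 ± 2.68 FPKM (SD, n = 3) in OE-MMP28 cells, and these ranges did not overlap.

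Few of the counts of these genes could have come from another gene. No other gene has exons over more than 5.29% of the exon length of a member, and the overlapping genes of the members had at most 5 counts in any library. Stretches of 50 bases shared with any other gene made up 2.78% or less of each member's transcripts, with the largest share for DOCK1.

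**Figure D4:**
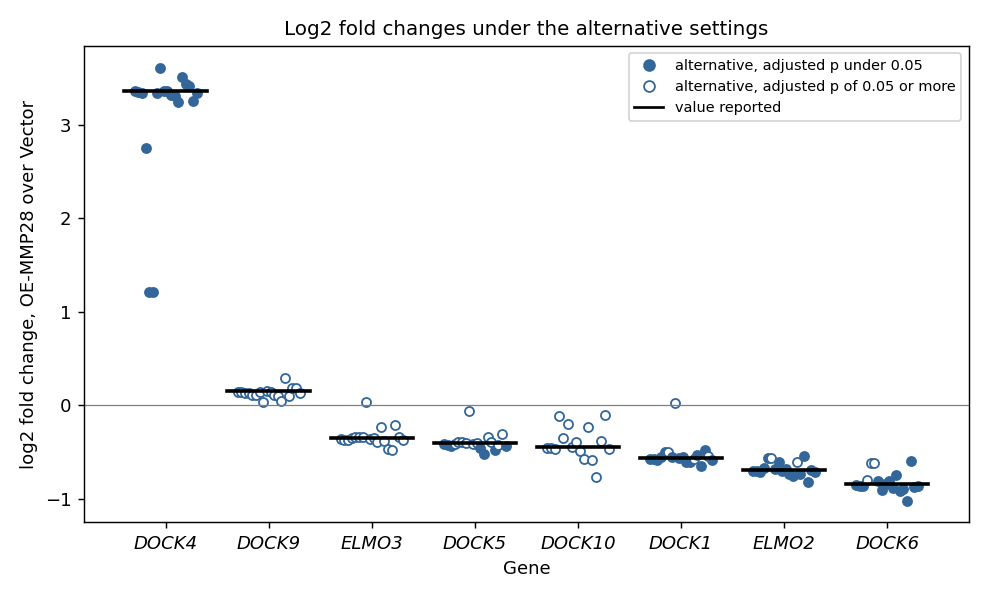
Log2 fold changes of the 8 members that passed the filter (vertical axis) under each alternative setting; the black line is the value reported, and filled points have an adjusted p under 0.05. DOCK4 stays above 1.2 and filled under every setting, and DOCK1 and ELMO3 each have 1 point just above 0, from the fit with the local median taken out.

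Genes whose proteins act with the DOCK and ELMO proteins were described in 6 lists. Of 102 listed genes, 86 passed the filter, 12 were higher and 17 were lower in OE-MMP28 cells, and their median log2 fold change was -0.048. Over all genes tested, 11.7% were higher and 11.6% were lower, the shares to set beside the counts of each list. All differences given here are log2 fold changes from edgeR, with adjusted p-values over all genes tested. Limma without a filter on low values called fewer genes in every list but that of the GTPases. There, of the pathway genes named for the largest changes of their lists, only ARF6, ARHGEF26, MERTK and ABI1 passed.

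Among 8 small GTPases, 1 was higher and 0 were lower. ARF6, which controls membrane recycling and acts upstream of Rac at the cell edge, went from 33.7 ± 2.51 to 73.3 ± 5.30 FPKM (SD, n = 3 each), with a log2 fold change of 1.13 (SE 0.14, edgeR's adjusted p = 1.48e-05). Genes around ARF6 had a median of 0.62, and with that taken out its log2 fold change was 0.52 (edgeR's adjusted p = 0.0181). RAC1, the main substrate of DOCK1, was at 181 ± 4.46 and 202 ± 12.6 FPKM (SD, n = 3 each) and did not pass the test (edgeR's adjusted p = 0.405). The CDC42 value of under 1.2 FPKM is uncertain, since 57.1% of its exon length lies under another annotated gene on the same strand.

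Of 20 tested receptors and adaptors upstream, 5 were higher and 6 were lower. ARHGEF26, which encodes the exchange factor SGEF, had 8, 5 and 2 counts in the Vector libraries and 134, 133 and 159 in the OE-MMP28 libraries, with a log2 fold change of 4.65 (SE 0.36, edgeR's adjusted p = 2.84e-08). NEDD9, an adhesion adaptor related to BCAR1, went from 0.176 ± 0.0418 to 0.585 ± 0.0859 FPKM (SD, n = 3 each), with a log2 fold change of 1.74 (edgeR's adjusted p = 0.000257). BCAR1 itself (0.25), CRK (0.029) and CRKL (-0.10) did not pass the test, nor did ITGAV (-0.16). Other adhesion genes of the list passed, in both directions. SRC (-0.85) and PTK2 (-0.45) were lower (edgeR's adjusted p = 0.000478 and 0.0289), and PXN (0.57) and ITGB5 (0.44) were higher (edgeR's adjusted p = 0.00917 and 0.0278). Without Vector replicate 3, and likewise without OE-MMP28 replicate 2, the higher genes of the list were 3, namely ARHGEF26, NEDD9 and GAS6. PXN and ITGB5 thus did not pass in those fits. Without OE-MMP28 replicate 2 or 3, the list had 4 lower genes in place of 6.

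In the same list, GAS6, a ligand that bridges phosphatidylserine to its receptors, had a log2 fold change of 1.05 (SE 0.21, edgeR's adjusted p = 0.00134), and 7.01% of its exon length overlaps an antisense gene that was itself counted. MERTK, a receptor for GAS6, was at 4.56, 5.34 and 5.41 FPKM in the Vector libraries and at 2.03, 1.72 and 1.32 FPKM in the OE-MMP28 libraries, with a log2 fold change of -1.59 (SE 0.20, edgeR's adjusted p = 9.74e-06). The other GAS6 receptors AXL (0.044) and TYRO3 (-0.20) and the engulfment adaptor GULP1 (-0.49) did not pass the test (edgeR's adjusted p = 0.864, 0.453 and 0.0527). MFGE8, which bridges phosphatidylserine to integrins, had a log2 fold change of -1.22 (edgeR's adjusted p = 0.00036). LRP1, also of this list, was lower too (log2 fold change -1.11, SE 0.24, edgeR's adjusted p = 0.00263). ADGRB1, a receptor that binds ELMO, had 9 to 38 counts and a log2 fold change of -1.54 (SE 0.45, edgeR's adjusted p = 0.0168), which passed in 10 of the 16 alternative settings that tested it. Without Vector replicate 2, the highest library, it was -1.06 (adjusted p = 0.154), and without OE-MMP28 replicate 1, 2 or 3 the adjusted p was 0.0527, 0.0659 or 0.0512.

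Of the 7 tested partners of DOCK and ELMO proteins, 0 were higher and 3 were lower. SH3YL1, which binds DOCK4, was at 7.89, 18.5 and 10.7 FPKM in the Vector libraries and at 5.79, 4.91 and 4.37 FPKM in the OE-MMP28 libraries, so that Vector replicate 2 stood well above the others. Its log2 fold change was -1.29 (SE 0.22, edgeR's adjusted p = 0.000377). MOB1A and MOB1B, Hippo pathway proteins of which MOB1 has been linked to DOCK8, had log2 fold changes of -0.65 and -0.58 (edgeR's adjusted p = 0.00441 and 0.0304). With the local median taken out MOB1A was at -0.19 (edgeR's adjusted p = 0.452), and MOB1B passed in 11 of 18 alternative settings, with an adjusted p of 0.0665 to 0.149 without Vector replicate 1 or 3 or OE-MMP28 replicate 2 or 3.

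Among 24 effectors, 3 were higher and 3 were lower. ABI1, ABI2 and ARPC1B, which are subunits of the WAVE complex and the Arp2/3 complex that start actin branches, had log2 fold changes of -0.78, -0.65 and -0.69 (edgeR's adjusted p = 0.00102, 0.00406 and 0.00631). With the local median taken out ABI1 was at -0.27 and ABI2 at -0.22, and neither passed, while ARPC1B was at -0.58 (edgeR's adjusted p = 0.0258). ABI2 shares 38.02% of its exon length with RAPH1 on the opposite strand, and ARPC1B shares 32.4% with AC004922.1 on the same strand. NCK1 (0.54), PAK4 (0.51) and ARPC3 (0.41) were higher but passed in 11, 9 and 2 of 18 alternative settings, and NCK1 was at -0.17 with the local median taken out (edgeR's adjusted p = 0.549). The adjusted p of NCK1 was 0.0941 to 0.139 without Vector replicate 3 or OE-MMP28 replicate 1 or 2, that of PAK4 was 0.0867 to 0.244 without replicate 2 or 3 of either group, and that of ARPC3 was 0.0619 to 0.129 without any 1 of the 6 libraries.

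Of 15 tested exchange factors for Rac and Cdc42 outside the DOCK family, 1 was higher and 4 were lower. ECT2, an exchange factor of cell division, had a log2 fold change of 0.69 (edgeR's adjusted p = 0.00532). SOS1, ITSN2 and PLEKHG4 had log2 fold changes of -0.72, -0.71 and -0.70 (edgeR's adjusted p = 0.00268, 0.00569 and 0.0255). With the local median taken out ECT2 was at 0.34, SOS1 at -0.42, ITSN2 at -0.17 and PLEKHG4 at -0.32, and none of these 4 passed the test. PLEKHG4 passed in 10 of 18 alternative settings, and its adjusted p was 0.0583 to 0.106 without Vector replicate 2 or 3 or OE-MMP28 replicate 1 or 2.

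Among 12 tested inhibitors of Rac and Cdc42, 2 were higher and 1 was lower. ARHGAP24, a Rac-directed GTPase activating protein also called FilGAP, had 36 to 42 counts in the Vector and 93 to 116 in the OE-MMP28 libraries, with a log2 fold change of 1.22 (SE 0.26, edgeR's adjusted p = 0.00223), and it did not pass in the 3 limma fits on FPKM, with adjusted p-values of up to 0.121. BCR (0.40) and SRGAP2 (-0.43) were higher and lower in the reported fit, and passed in 3 and 8 of 18 alternative settings. Leaving out any library other than OE-MMP28 replicate 1 gave adjusted p-values of 0.0708 to 0.193 for BCR and 0.0555 to 0.152 for SRGAP2.

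**Figure D5:**
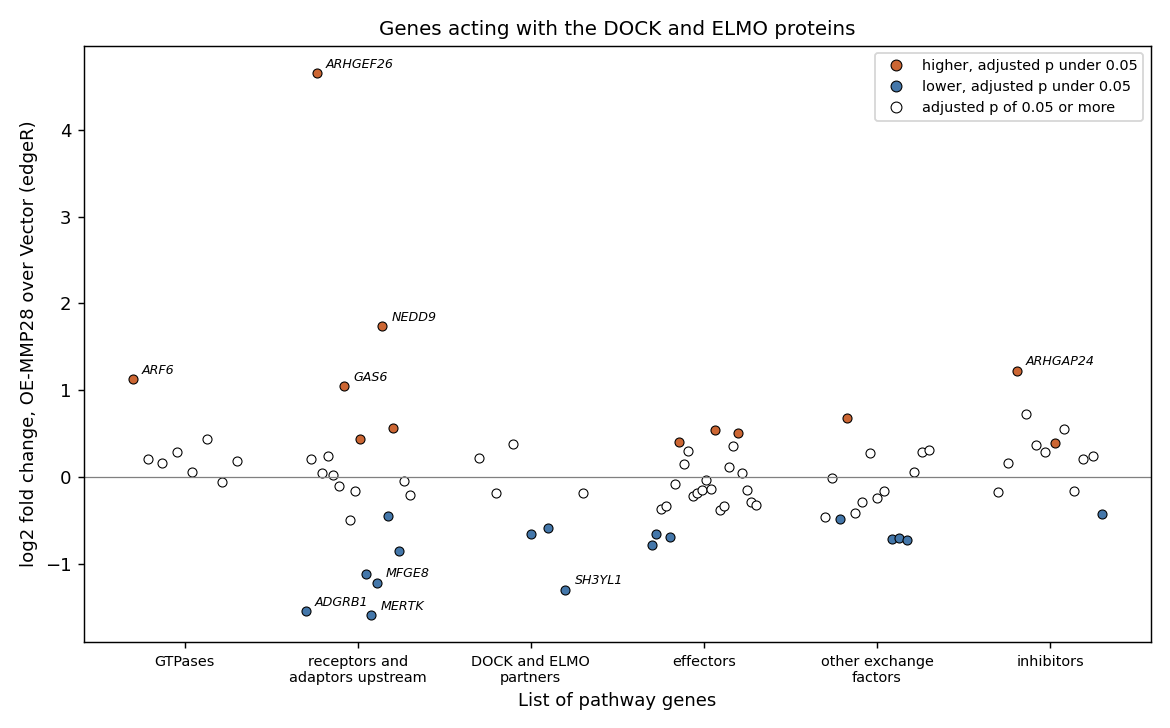
Log2 fold change of OE-MMP28 over Vector (vertical axis, edgeR) for the 86 tested genes of the 6 pathway lists (horizontal axis), 1 point per gene; orange is higher and blue is lower at an adjusted p under 0.05. ARHGEF26 stands apart at 4.65, and the largest falls are those of MERTK and ADGRB1.

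The genes whose level over the 6 libraries was most like that of DOCK4, by Pearson's r of log2 CPM (counts divided by library size) among 12258 genes with a mean level of 1 FPKM or more, were FZD1, GALNT10 and ZNF689, each with r = 0.997. FZD1, a Wnt receptor, was at 0.611, 0.595 and 0.555 FPKM in the Vector libraries and at 1.76, 2.05 and 1.57 FPKM in the OE-MMP28 libraries, the latter highest in replicate 2 and lowest in replicate 3, the order that DOCK4 also had. For DOCK6, the member with the lowest log2 fold change, the most alike were CALCOCO1 (0.998), PLXNB1 (0.997) and MPST (0.996). These coefficients rest on 6 libraries that share the group difference, and 30 genes reached an r of 0.99 with DOCK4 and 13 with DOCK6.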

How the data were processed

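RNA of 3 Vector and 3 OE-MMP28 samples of AsPC-1 cells was analysed, grouped by the sample labels. The authors deposited raw read counts per gene, as whole numbers, and FPKM values computed from them in 1 table. The submitters' processing notes name HISAT2 2.0.5 and featureCounts 1.5.0-p3. The genome build and the use of strand in counting were not given in the sources used here, so reads of a gene and its antisense partner cannot be told apart. All 58735 gene positions equalled those of GENCODE 29 on GRCh38. The table's columns of the authors' own comparison (fold changes, p-values and group means) were not used. Total counts of 13633249 to 16691458 put the limit of a count of 0 (3 counts) at 0.180 to 0.220 CPM, which covers counting error only.

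Counts were tested with edgeR 4.0.16 in R 4.3.3 (glmQLFit and glmQLFTest, TMM scaling, group as the only term). Low genes were removed by filterByExpr (min.count 10, min.total.count 15), and the Benjamini-Hochberg adjustment ran over the 15319 genes left. On simulated counts with 192 changed genes among 15338 tested, edgeR recovered 70.5% at a log2 fold change of 1 and 99.0% at 2, and 6.32% of its calls were false. Smaller changes, such as those of DOCK1, DOCK6 and ELMO2, were not simulated, nor were shifts of whole chromosomal stretches. These shares therefore do not cover them. The 18 alternatives were leaving out each library, the replicate block, other scalings and filters, DESeq2 1.42.0, limma 3.58.1 on counts (voom) and on FPKM in log2 after adding 1 or 0.1, with a minimum mean of 0.5 FPKM or none, leaving out mitochondrial genes, and an offset for the median log2 fold change of the other genes tested within 5 Mb on either side.

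The members and the lists were chosen with earlier results of these data known. Named were genes of DOCK-A to DOCK-D and ELMO, MMP28, up to 3 higher and 3 lower genes per pathway list at an adjusted p under 0.05 with the largest changes, and the 3 genes most alike to the members with the highest and the lowest log2 fold change. Other genes (RAC1, CDC42, BCAR1, CRK, CRKL, ITGAV, SRC, PTK2, PXN, ITGB5, AXL, TYRO3, GULP1, LRP1, marker genes and chromosomal neighbours) were chosen after their values were seen. So were the comparison of exon overlap and shared sequence and the 8 promoter motifs. Promoters came from RefSeq, GRCh38.p14. Some listed genes are not reported here and were left out of the lists and sums.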

Additional observations from a re-analysis of the deposited data

How the results depend on the processing

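Leaving out 1 library gave between 985 and 1916 higher and between 1044 and 1949 lower genes, where 1795 and 1784 were reported, with 1 member higher throughout and between 1 and 4 members lower. Of these, 1136 higher genes came without Vector replicate 3, and 985 higher genes, 1044 lower genes and 1 lower member (DOCK6) without OE-MMP28 replicate 2, where DOCK1 (-0.58) and ELMO2 (-0.60) were close to their reported values of -0.56 and -0.69 but did not pass. limma on log2(FPKM + 1) gave 1009 higher and 965 lower genes, and on log2(FPKM + 0.1) it gave 1000 and 970. Without a filter limma gave 362 higher and 308 lower genes, 0 members lower (edgeR without a filter called them) and a log2 fold change of MMP28 of 0.84 with an adjusted p of 0.0903. The local median offset gave 1137 higher genes and turned the direction of DOCK1 (0.025) and ELMO3 (0.033). DOCK3, reported at -0.0085, ran from -0.26 to 0.23 over the fits without 1 library and was at 0.053 in limma voom. The causes were not tested. Same-numbered samples did not deviate together (r = 0.017, 0.0080 and -0.088), so the numbers were not taken as pairs, and the fit with the replicate block gave 1844 higher and 1841 lower genes, the same number of members called, 1 higher and 0 lower inhibitors in place of 2 and 1, and 0.026 for DOCK3. No scaling moved the median of all genes by more than 0.047. DOCK10 and DOCK3 had at most 107 and 50 counts, and low counts left DOCK2, DOCK8, DOCK11 and ELMO1 untested.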
